A study of Mus musculus with 6 samples.

Results

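The 9 genes described here are the Sox transcription factors Sox17, Sox7, Sox18, Sox3, Sox4, Sox11, Sox12, Sox13 and Sox15, the members of the family other than Sox2 that were named for a look at which Sox factors mouse embryonic stem cells express. They were taken by gene symbol from the annotation of an Illumina MouseRef8 v2 bead array. Of the 9 genes, 8 had at least 1 probe and together held 11 of the 25697 probes, and no probe was annotated to Sox11, which is not analysed here. Total RNA of cultured mouse embryonic stem cells was measured on 6 arrays. Sox17_dox was a pair of independently derived Sox17-inducible lines, called line 1 and line 2 here, after 5 days in 1 µg/mL doxycycline (n = 2), and Sox17_untreated was the same pair of lines without the drug (n = 2). The control line was KH2, given the same drug in KH2_dox (n = 1) and left without it in KH2_untreated (n = 1). KH2 is a stem cell line built for transgenes under tetracycline control. All cells were grown for 5 days without feeder cells in serum and LIF, a cytokine that sustains self-renewal. The promoter of the construct, the strain and the number of clones behind a line were not given in the sources used here.

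Sox proteins bind DNA through an HMG box, a domain first recognised in Sry, and bend it. They are sorted into groups by the sequence of that box. SoxF, made up of Sox7, Sox17 and Sox18, acts in endoderm and in blood vessels, and Sox17 and Sox7 also mark the extraembryonic endoderm that forms beside the epiblast. SoxB1 (Sox2 and Sox3) acts in the epiblast and neural tissue, SoxC (Sox4, Sox11 and Sox12) in neural, lymphoid and mesenchymal progenitors, and SoxD (Sox13) and SoxG (Sox15) in several tissues, with Sox15 known from embryonic stem cells and muscle.

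A probe counted as detected on an array where the deposited detection p was under 0.05, that is, where few of the negative control probes were as bright. From 43.7% to 46.5% of probes were detected on an array, a probe was typically read by 38 to 40 beads (median), whose standard error was in the median 4.81% to 5% of the signal. Between arrays, the normalised values of the 12373 tested probes correlated at 0.968 to 0.989. The Sox17_untreated array of line 1 stood nearer to KH2_untreated (0.986) than to the induced array of its own line (0.983). It was not alone in this. The induced array of line 1 stood nearer to untreated line 2 (0.986) than to its own untreated array (0.983). KH2_untreated stood nearer to untreated line 2 (0.9824) than to KH2_dox (0.9822). Eif2s3y, a Y-linked translation factor gene, was undetected on all 4 arrays of the inducible lines, untreated line 1 included, and read 6.97 on KH2_dox and 7.91 on KH2_untreated. Its probe was picked for the smallest adjusted p between the inducible lines and KH2, so it is no independent check of the label of untreated line 1. Every marker of the embryonic stem cell list (10 of 10, with Pou5f1, Nanog, Zfp42 and Esrrb among them) was detected on all 6 arrays, and the list had a median difference of 0.05 between Sox17_dox and Sox17_untreated with 0 called. Fitted differences of the tested Sox genes that use the untreated line 1 array are given with and without it.

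Of the 8 genes with a probe, 3 were detected on all 6 arrays: the SoxC gene Sox12, the SoxD gene Sox13 and the SoxG gene Sox15. Of all probes on the array, 40.3% were detected on all 6 arrays and 49% on none. Sox4, Sox18, Sox7 and Sox17 were each detected on some of the arrays, and Sox3 on none. Sox4 was detected on 4 arrays and Sox18 on 3, which was enough to enter the test across genes. Sox17 and Sox7 were each detected on 1 array and were not tested. In an array of whole cultures, fewer cells of a type and less RNA per cell cannot be told apart. A probe's brightness depends on its sequence, so levels are compared below between arrays for the same probe and never between genes.

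**Figure D1:**
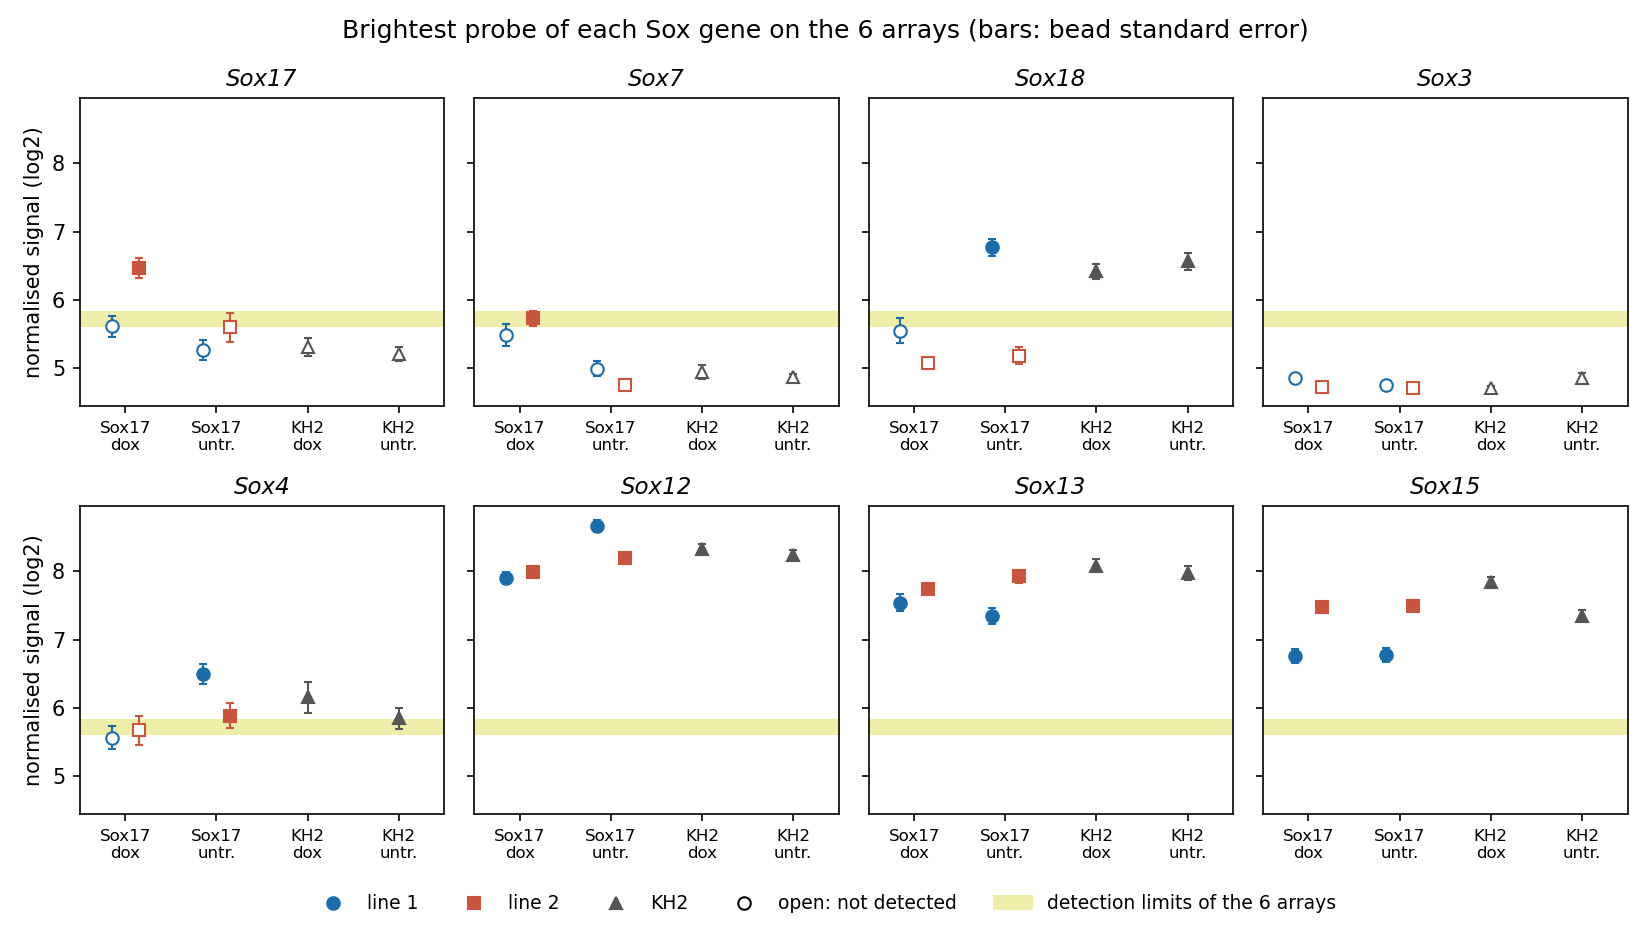
Normalised signal (log2, vertical axis) of the brightest probe of each of 8 Sox genes on the 6 arrays, by group; bars are the bead standard error of that array, filled points were detected, open points were not, and the band spans the detection limits of the 6 arrays (5.62 to 5.83). Sox12, Sox13 and Sox15 lie above the band on every array, Sox3 lies below it on every array, and Sox18 lies above it on the untreated array of line 1 and on both KH2 arrays.

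Sox17, the induced gene, encodes a SoxF factor of endoderm and vessels. Its brighter probe had a raw signal of 125 ± 6.15 intensity units (bead standard error) in Sox17_dox line 1 and 165 ± 8.88 in Sox17_dox line 2, against 108 ± 6.2 in Sox17_untreated line 1 and 115 ± 7.82 in Sox17_untreated line 2. KH2_dox read 124 ± 6.03 and KH2_untreated 114 ± 4.99. The detection p was 0.0652 and 0.00501 on the induced arrays, against 0.150 and 0.0551 on the untreated arrays of the same lines, so the induced array of line 2 alone was above detection. On the normalised log2 scale the induced arrays read 5.61 and 6.47 and the untreated ones 5.26 and 5.60, and the groups did not overlap, as was also so for 15.8% of the tested probes in this direction. Line 1 changed by 0.35 ± 0.21 and line 2 by 0.87 ± 0.26, with 0.11 ± 0.17 for KH2, where the error is that of the beads alone. With 1 of 2 induced arrays and 0 of 2 untreated arrays detected, no fold is given for the group. In the authors' normalised values the KH2 change was 0.72, beside 0.43 in line 1 and 1.09 in line 2. The second Sox17 probe was detected on no array; its normalised signal was 4.96 and 5.11 on the induced arrays and 4.70 and 4.83 on the untreated ones. Where these probes lie in the gene is not given in the sources used here, so they need not read the transcript of the construct and do not check the labels.

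Sox7 is the SoxF relative that shares extraembryonic endoderm with Sox17. Its brighter probe read 5.48 in Sox17_dox line 1 and 5.73 in Sox17_dox line 2, against 5.00 in Sox17_untreated line 1 and 4.75 in Sox17_untreated line 2. KH2_dox read 4.95 and KH2_untreated 4.87. The change was 0.49 ± 0.20 (bead error) in line 1 and 0.98 ± 0.13 in line 2, with 0.08 ± 0.12 in KH2. The detection p was 0.0827 and 0.0426 on the induced arrays and 0.286 to 0.680 on the other 4. Because the single detected reading lay at the detection limit, no fold could be set for the group. Sox7 was too dim to be tested, and at a detection p under 0.01 it was detected on no array. The other Sox7 probe was undetected on every array and read 4.91 and 5.19 on the induced arrays, against 4.79 and 4.78 on the untreated arrays of the same lines, with a KH2 change of 0.22. For both genes the larger change was in line 2, and it was in line 2 that the single detected readings fell. Of all 25697 probes, 0.537% were detected on the induced array of line 2 and on no other.

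Sox18, the third SoxF gene, is known from vessels and lymphatics. Its probe had a raw signal of 123 ± 7.49 in Sox17_dox line 1 and 102 ± 4.38 in Sox17_dox line 2, against 180 ± 9.74 in Sox17_untreated line 1 and 99.6 ± 5.08 in Sox17_untreated line 2. KH2_dox read 176 ± 6.37 and KH2_untreated 185 ± 9.12. On the log2 scale the induced arrays read 5.55 and 5.08, the untreated arrays of the same lines 6.77 and 5.19, KH2_dox 6.42 and KH2_untreated 6.56. The gene was thus detected in KH2 with and without the drug and in untreated line 1, and undetected in line 2 with and without the drug. The same set of arrays, and no other, detected 0.0973% of all probes. The change with doxycycline was -1.22 ± 0.23 (bead error) in line 1 and -0.11 ± 0.15 in line 2, with -0.14 ± 0.16 in KH2. Sox18 was the only one of the 5 tested genes past 2-fold in line 1, where 2.53% of tested probes were, and 0 of the 5 were in line 2, where 0.719% were. In the authors' values Sox4 was past 2-fold in line 1 as well (-1.33, beside -1.65 for Sox18), and with no background model 0 of the 5 were (Sox18 -0.55). Untreated line 2 minus untreated line 1 was -1.58 on the log2 scale, a gap wider than the change in either line, and the treated and untreated groups overlapped.

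The fit of all tested probes gave Sox18 a difference of -0.66 ± 0.50 (SE, n = 2 against 2) between Sox17_dox and Sox17_untreated, with a 95% interval of -1.87 to 0.54 (limma, adjusted p = 0.955). Both induced arrays and 1 of 2 untreated ones were undetected, so no fold is given. Without the untreated array of line 1 the difference was 0.13, and without that of line 2 it was -1.46, so its direction rests on the line 1 array. Against KH2_dox, a single array where Sox18 was detected, the mean of the induced lines was at least 1.65-fold lower. That bound carries no spread between arrays. The fitted difference was -1.11 ± 0.61, with a 95% interval of -2.58 to 0.37 (limma, adjusted p = 0.540). Over both treatments the inducible lines lay 0.85 ± 0.43 below KH2 (adjusted p = 0.542). Without untreated line 1 that difference was -1.25, and it was -0.45 without untreated line 2. The genes with the pattern most like that of Sox18 over the 6 arrays, among 2254 probes that also spanned at least 1 on the log2 scale, were Gprin1 (Pearson r = 0.990), Trim67 (0.990) and Fgf13 (0.989). Trim67 read 5.90 and 5.18 on the induced arrays, 7.05 and 5.27 on the untreated arrays of the same lines, 6.96 on KH2_dox and 6.94 on KH2_untreated. The 6 arrays come from 3 lines on 1 chip, and these 3 are the highest of many correlations.

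Markers of endothelium, where SoxF genes are active, were set beside these values. Of 10 endothelial genes, all with a probe, 5 (Flt1, Tek, Eng, Esam and Ets1) were detected on every array and the other 5 (Cdh5, Kdr, Tie1, Emcn and Erg) on none. The summed normalised signal of the list was 737 to 1203 in Sox17_dox and 637 to 1027 in Sox17_untreated, with 945 in KH2_dox and 913 in KH2_untreated. The 5 tested genes had a median difference of 0.32 between Sox17_dox and Sox17_untreated, against -0.01 over all tested probes, with Flt1, Ets1 and Esam above 0 (0.56, 0.53 and 0.32), Tek and Eng below it (-0.29 and -0.16), and 0 called. Their part in the SoxF values was not tested.

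Sox3, a SoxB1 factor of neural progenitors that shares much of the binding of Sox2, was undetected on all 6 arrays. Its raw signal was 90.4 and 80.5 on the induced arrays and 80.8 and 74.8 on the untreated arrays of the same lines, with 87.2 in KH2_dox and 95.2 in KH2_untreated, and the detection p was 0.461 to 0.812. Its normalised values spanned 0.15 on the log2 scale and lay below the detection limit on every array. Sox2, its SoxB1 relative, was detected on all arrays and differed by -0.18 ± 0.22 between Sox17_dox and Sox17_untreated (limma, adjusted p = 0.962).

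The SoxC genes Sox4 and Sox12 read lower on both induced arrays than on either untreated array of the same lines. Sox12, widely expressed in progenitor cells, read 7.90 in Sox17_dox line 1 and 7.99 in Sox17_dox line 2, against 8.66 in Sox17_untreated line 1 and 8.20 in Sox17_untreated line 2. KH2_dox read 8.32 and KH2_untreated 8.24, which lie between the untreated lines. The change was -0.77 ± 0.12 (bead error) in line 1 and -0.20 ± 0.13 in line 2, with 0.08 ± 0.11 in KH2, which turned to -0.023 with median scaling and -0.027 in the authors' values. In line 1 it was 6.45 times its bead error, and in line 2 it was 1.62 times.

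Sox4, which sustains survival and growth of many progenitor types, read 5.57 and 5.68 on the induced arrays and 6.50 and 5.89 on the untreated arrays of line 1 and line 2. KH2_dox read 6.16 and KH2_untreated 5.85. The detection p was 0.0702 and 0.0564 on the induced arrays, just short of detection, and 0.00251 to 0.0326 on the other 4. The change was -0.93 ± 0.22 (bead error) in line 1 and -0.21 ± 0.28 in line 2, with 0.31 ± 0.27 in KH2. In group means, Sox4 was at least 1.40-fold lower in Sox17_dox than in Sox17_untreated, where both arrays were detected. Its mean was at least 1.37-fold lower than in KH2_dox, a single array. These bounds carry no spread between arrays, and the 95% interval of each fitted difference covers 0. The first bound rests mostly on line 1, which changed by -0.93 against -0.21 in line 2. At a detection p under 0.01 Sox4 was detected on untreated line 1 alone and was not tested. The probe was read by few beads on some arrays, 21 to 37 in all.

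Neither SoxC gene passed the test. The difference between Sox17_dox and Sox17_untreated was -0.57 ± 0.26 for Sox4 (SE, n = 2 against 2; 95% interval -1.19 to 0.05) and -0.49 ± 0.23 for Sox12 (-1.04 to 0.07), each with an adjusted p of 0.955 by limma. Of all 12373 tested probes, 0 were called in this comparison (0%), 528 had an unadjusted p under 0.05 (4.27%), and 17.5% had both induced arrays below both untreated ones. The 2 of 5 tested Sox genes with such a pattern, Sox4 and Sox12, are to be read against that share, and the pattern is no mark of the pair. A change below 0 in both inducible lines and above 0 in KH2 was held by 13.3% of tested probes and by 3 of the 5 genes (Sox4, Sox12 and Sox15), and with median scaling or in the authors' values by Sox4 alone. With the line as a block, 1 probe was called (0.00808%; 13.6% at an unadjusted p under 0.05), that of the endoderm factor Gata6 (2.06, adjusted p = 0.0327), and Sox4 and Sox12 had adjusted p of 0.311 and 0.343. Leaving out the untreated array of line 1 moved Sox4 to -0.26 and Sox12 to -0.25, and leaving out that of line 2 moved them to -0.88 and -0.72. After the KH2 change was taken off, the values were -0.88 ± 0.44 for Sox4 and -0.56 ± 0.40 for Sox12 (limma, adjusted p = 0.996 each; -0.58 and -0.33 without untreated line 1, -1.18 and -0.80 without untreated line 2), in a comparison where 0% of probes were called and 2.78% had an unadjusted p under 0.05. Against KH2_dox, which shares the induced arrays with the first comparison, they were -0.54 ± 0.31 and -0.38 ± 0.28 (adjusted p = 0.559 and 0.637), and there too 0% of probes were called, with 11.1% at an unadjusted p under 0.05. The second Sox12 probe was detected on no array and differed by -0.15 in line 1 and -0.05 in line 2, with -0.15 in KH2.

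**Figure D2:**
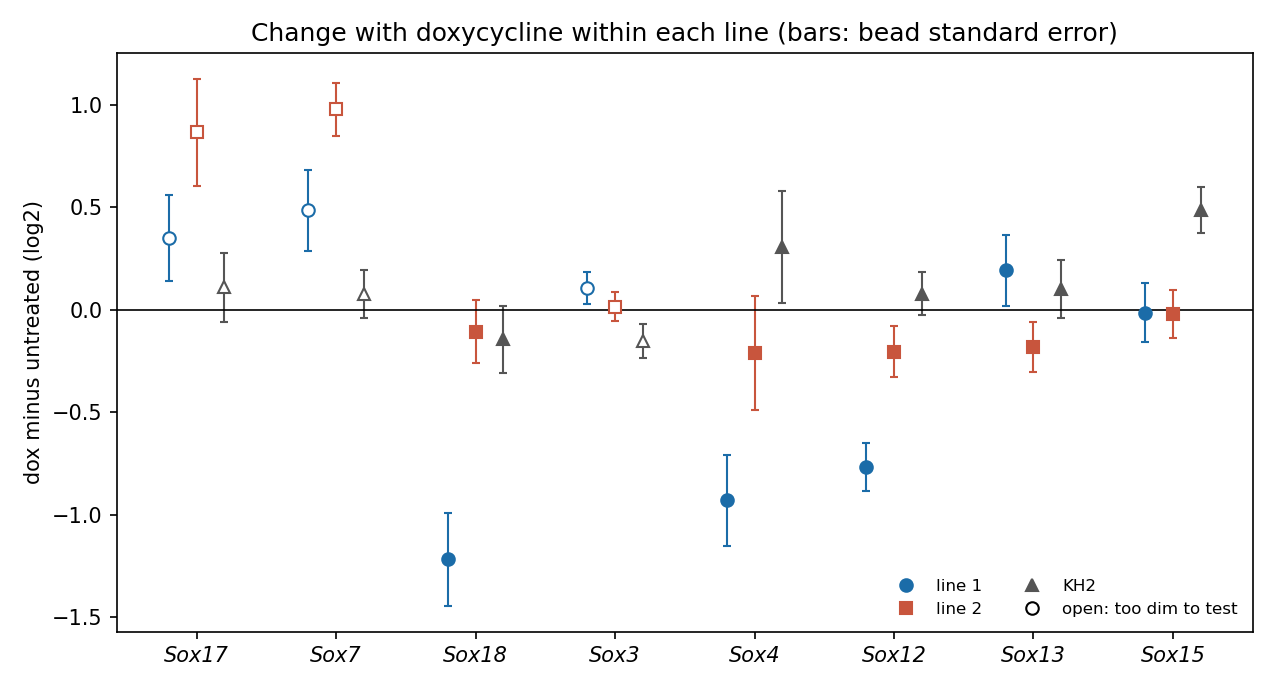
Change with doxycycline within each line (dox minus untreated, log2, vertical axis) for the brightest probe of 8 Sox genes; bars are the bead standard errors of both arrays combined, and open points mark genes too dim to test. Sox17 and Sox7 lie above 0 in both inducible lines, Sox4 and Sox12 lie below 0 in both and above it in KH2 (for Sox12 below 0 there with median scaling and in the authors' values), and Sox15 is near 0 in both inducible lines and at 0.49 in KH2.

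The starts of the tested Sox genes are shown for reference, so that the SoxC pair can be read beside the SoxD and SoxG genes; no difference in their values was established. The promoter table, from RefSeq on GRCm38.p6, held 5 of the 9 genes, and 4 of these had a probe. Each stretch is the 250 bases before an annotated start, 5′ to 3′ on the gene's strand, with capitals at matches to a Sox core (ACAAT, or ATTGT on the other strand) or to the octamer bound by Oct factors (ATGCAAAT, or ATTTGCAT). The stretch of Sox4 is chr13:28953700-28953949 on the minus strand, of Sox12 chr2:152398047-152398296 on the minus strand, of Sox13 chr1:133424213-133424462 on the minus strand, at a start that is not its outermost, and of Sox15 chr11:69654787-69655036 on the plus strand.
Sox4: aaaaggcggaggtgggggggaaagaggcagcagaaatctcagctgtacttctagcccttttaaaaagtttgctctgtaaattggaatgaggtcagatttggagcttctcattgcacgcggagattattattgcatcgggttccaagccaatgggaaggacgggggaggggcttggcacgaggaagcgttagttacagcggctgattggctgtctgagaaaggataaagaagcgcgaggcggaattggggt
Sox12: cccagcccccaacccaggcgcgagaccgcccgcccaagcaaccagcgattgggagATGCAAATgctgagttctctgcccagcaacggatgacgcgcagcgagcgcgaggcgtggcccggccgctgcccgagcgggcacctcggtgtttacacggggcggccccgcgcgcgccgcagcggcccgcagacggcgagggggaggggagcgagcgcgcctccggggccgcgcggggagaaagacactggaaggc
Sox13: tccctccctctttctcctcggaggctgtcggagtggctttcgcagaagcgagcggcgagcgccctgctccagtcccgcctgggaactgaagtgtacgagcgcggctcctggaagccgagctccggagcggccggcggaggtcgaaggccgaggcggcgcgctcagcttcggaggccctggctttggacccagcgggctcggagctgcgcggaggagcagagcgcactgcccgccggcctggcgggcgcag
Sox15: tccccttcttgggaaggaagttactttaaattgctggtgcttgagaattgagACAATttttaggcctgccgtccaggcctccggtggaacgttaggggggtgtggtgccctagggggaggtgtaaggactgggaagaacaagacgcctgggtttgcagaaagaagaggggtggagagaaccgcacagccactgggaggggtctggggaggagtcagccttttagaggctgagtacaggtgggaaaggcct
Sox12 held 1 octamer and no Sox core, Sox15 held 1 Sox core and no octamer, and Sox4 and Sox13 held neither. Among all 32851 promoter stretches of the table, 27.7% held a Sox core and 1.6% an octamer on either strand. The count of CG pairs was 35 in Sox12, 31 in Sox13, 11 in Sox4 and 5 in Sox15, against a median of 6 over the table. A match is a description of the letters and not of binding.

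Sox13, a SoxD factor without a transactivation domain that is known from lymphoid cells and vessels, was detected on all arrays. It read 7.54 in Sox17_dox line 1 and 7.75 in Sox17_dox line 2, against 7.35 in Sox17_untreated line 1 and 7.93 in Sox17_untreated line 2. KH2_dox read 8.08 and KH2_untreated 7.98, above each of the 4 arrays of the inducible lines. The change with doxycycline was 0.19 ± 0.17 (bead error) in line 1, -0.18 ± 0.12 in line 2 and 0.10 ± 0.14 in KH2, opposite in direction between the inducible lines. The difference between Sox17_dox and Sox17_untreated was 0.01 ± 0.26 (95% interval -0.61 to 0.62), and -0.29 without untreated line 1. Over both treatments the inducible lines lay 0.39 ± 0.22 below KH2 (SE; limma, adjusted p = 0.582), and the difference was -0.24 without untreated line 1. This sets 4 arrays of 2 lines against 2 arrays of 1 line, and the arrays of a line are counted as independent. Sox13 was the only one of the 5 tested genes with all 4 inducible arrays below both KH2 arrays, a pattern seen in 11.1% of tested probes. In this comparison 1 of 12373 probes was called (0.00808%), that of Eif2s3y, and 10.2% had an unadjusted p under 0.05.

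Sox15, the SoxG gene, can bind with Oct4 in embryonic stem cells much as Sox2 does. It read 6.76 in Sox17_dox line 1 and 7.47 in Sox17_dox line 2, against 6.78 in Sox17_untreated line 1 and 7.49 in Sox17_untreated line 2. KH2_dox read 7.84 and KH2_untreated 7.35. The level went with the line: line 2 lay 0.70 above line 1 with doxycycline and 0.71 above it without, whereas the drug moved line 1 by -0.01 ± 0.14 (bead error) and line 2 by -0.02 ± 0.12. In KH2 the change was 0.49 ± 0.11, or 4.30 times its bead error, with no replicate check. A change of at least 2-fold between the KH2 arrays was seen in 2.04% of tested probes and in 0 of the 5 tested Sox genes. The fitted difference between Sox17_dox and Sox17_untreated was -0.02 ± 0.34 (95% interval -0.83 to 0.80; limma, adjusted p = 0.998). This fit does not pair the lines, so its error holds the gap between them. Without untreated line 1 it gave -0.37, which sets both induced lines against untreated line 2 alone and is no change within a line. With the line as a block the difference was -0.02 (limma, adjusted p = 0.979). Against KH2_dox the induced lines were lower by 0.72 ± 0.41 (adjusted p = 0.552), and the difference of the doxycycline changes was -0.50 ± 0.59 (adjusted p = 0.996). With an array left out these ran from -1.07 (without induced line 2) to -0.36 (without induced line 1), and from -0.86 (without untreated line 1) to -0.15 (without induced line 1). The genes most like Sox15 over the 6 arrays, by the same rule as for Sox18, were Josd2 (Pearson r = 0.997), Ufsp1 (0.987) and Cdkn2b (0.986). Josd2, a deubiquitinase gene, read 8.57 and 9.14 on the induced arrays, 8.53 and 9.23 on the untreated arrays of the same lines, 9.55 on KH2_dox and 9.09 on KH2_untreated.

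**Figure D3:**
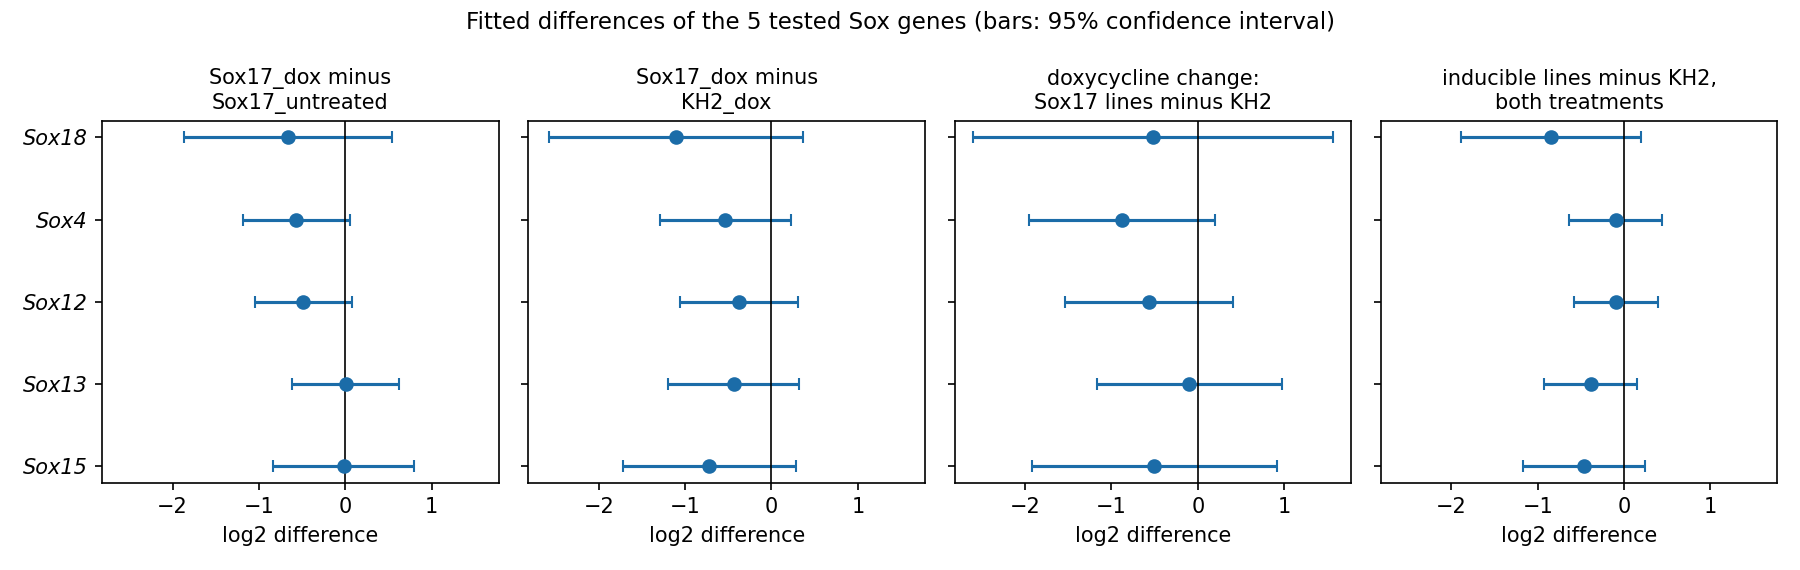
Fitted log2 differences (horizontal axis) of the 5 tested Sox genes in 4 comparisons, with 95% confidence intervals as bars. Every interval covers 0; those of Sox18 are the widest, from -1.87 to 0.54 for Sox17_dox minus Sox17_untreated, and the Sox4 interval in that comparison runs from -1.19 to 0.05.

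Genes of endoderm that are tied to Sox17 were read for scale. Of 15 extraembryonic endoderm genes, 11 were tested and 0 were called in either direction (limma, 0% of all probes called). A higher mean in Sox17_dox than in Sox17_untreated was held by 10, and 8 were higher in both inducible lines. The share of all tested probes with either pattern was not counted. In line 1, Dab2 (-0.07), Gata4 (-0.20) and Amn (-1.04) were lower with doxycycline. Line 1 had a median change of 0.88 over the 11 tested genes, line 2 of 0.58 and KH2 of 0.16. The medians over all tested probes were -0.01, -0.01 and 0.03. The members with the largest mean changes were Gata6 (2.18 in line 1 and 1.94 in line 2, with 0.29 in KH2), the receptor gene Pdgfra and the collagen gene Col4a1. With the line as a block Gata6 was called (adjusted p = 0.0327), as given above. Pdgfra passed detection on the induced arrays of both lines and nowhere else, and the share of all probes that did so was not counted. The forkhead factor Foxa2 was undetected on all arrays. Of 14 partners and HMG-box relatives of Sox proteins, 7 were tested and 0 called, and their median change was 0.20 in line 1 but -0.12 in line 2, with -0.31 in KH2. The largest mean changes among these were those of the POU factor gene Pou3f1 (-0.80 and -0.06 in the inducible lines, -0.59 in KH2), the HMG-box gene Hmgb2 (-0.04 and -0.48, with -0.31) and another POU factor gene, Pou3f2, which was detected on 2 arrays and went opposite ways (0.61 in line 1 and -1.0 in line 2, with -0.07 in KH2).

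Neural and fibroblast markers, in whose tissues SoxC and SoxB1 genes are also active, were mostly undetected. Of 7 neural genes with a probe, 1 was detected on all arrays, and Pax6, Neurog2 and Zic1 on none. Their summed normalised signal was 383 to 390 in Sox17_dox, against 335 to 410 in Sox17_untreated, with 456 in KH2_dox and 474 in KH2_untreated, and the 3 tested genes had a median difference of 0.05 with 0 called. Of 8 fibroblast genes, 2 were detected on all arrays, and Col1a2, Col3a1, Lum, Dcn and Pdgfrb on none. Their summed signal was 924 to 1432 in Sox17_dox and 1014 to 1277 in Sox17_untreated, with 1485 in KH2_dox and 1352 in KH2_untreated, and the 3 tested genes had a median difference of -0.01 with 0 called. These were Col1a1 (0.53), Thy1 (-0.22) and Fbln1 (-0.01). The part of such cells in the Sox values was not tested.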

How the data were processed

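Total RNA was amplified with the Illumina TotalPrep kit and read on bead arrays, 1 array per sample, per the labels' protocols. The deposited raw table gives each probe a mean bead intensity with its standard error, a count of beads, and a detection p-value in steps of 1 in 798, per the file headers. The authors also deposited intensity values normalised in BeadStudio, per the submitters' processing notes, by a method not given in the sources used here.

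Raw signal was corrected by the normexp model with negative control levels taken from the detection p-values, raised by an offset of 16, quantile-normalised and set on the log2 scale (neqc, limma 3.58.1, R 4.3.3). The test took the 12373 probes detected (p under 0.05) on 2 or more of the 6 arrays. Each comparison was a limma contrast (lmFit, eBayes, two-sided, Benjamini-Hochberg over those probes, threshold 0.05) among 4 group means, which lends the KH2 arrays the spread of the inducible lines. A bound sets the brighter group's mean against the higher of each dim array's detection limit and its own value, and carries no spread between arrays. Bead errors were carried through each array's own normalisation and cover that array only. The p-values measure the spread between the 2 lines, which are the replicates, and precision is limited by how few arrays there are. The comparison of the inducible lines with KH2 has no line term. It counts the treated and untreated array of a line as independent, so its errors and its call are to be read with that limit.

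Of 25697 probes, 23978 had 1 gene symbol and 1719 none. All probes of the 9 genes are given, and the brightest stands for a gene. Markers, partners and other Sox genes were read from lists. The 3 largest changes are named for the endothelial, endoderm, fibroblast, partner and other Sox lists. The 3 genes most like a member are named where its values span at least 1 on the log2 scale. The members and lists were chosen with earlier results of these data known. The fitting code was run on simulated data with planted changes of 3 on the log2 scale, 1 common spread and no line effect. That run does not measure its power for smaller changes. The labels name line 2 only, and the inducible arrays whose labels carry no line number were taken as line 1. This pairing enters the changes within a line and the block fit, and not the main fit. The difference of line 1 minus line 2 with doxycycline and the same without it correlated at 0.509 over the tested probes. One chip held all arrays, so no batch could be separated. Alternatives were no background model, median scaling, the authors' values floored at 16, no filter or a detection p under 0.01, trend and robust moderation, the line as a replicate block, and each array left out.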

Additional observations from a re-analysis of the deposited data

How the results depend on the processing

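Of 221 recomputed fitted differences of the 5 tested Sox genes, the change between the KH2 arrays not among them, 207 kept their direction, 14 turned it, and 0 passed the threshold under any alternative run. Between Sox17_dox and Sox17_untreated, Sox13 was -0.0017 without a background model and -0.29 to 0.30 with an array left out, Sox15 was 0.017 with median scaling and -0.37 to 0.34 with an array left out, and Sox18 was -1.46 to 0.13. After the KH2 change was taken off, Sox13 was 0.051 with median scaling, 0.038 in the authors' values and -0.39 to 0.19 with an array left out, and Sox18 was -1.31 to 0.27. For inducible lines minus KH2, leaving out an array gave -0.21 to 0.026 for Sox12 and -0.25 to 0.055 for Sox4. The change between the KH2 arrays turned to -0.023 for Sox12 and -0.0013 for Sox13 with median scaling, and to -0.027 for Sox12 in the authors' values. The main fit does not pair the lines, so a fitted difference with an inducible array left out also holds the gap between the inducible lines. For Sox15 the change within a line was -0.01 in line 1 and -0.02 in line 2. The cause of the turns under the other settings was not tested. Probes called between Sox17_dox and Sox17_untreated numbered 1 with the line as a replicate block, and the block changed no other call. Probes called between the inducible lines and KH2 numbered 0 without a background model, 0 with no filter, and 0 to 31 with an array left out, the highest without untreated line 1. KH2 probes at least 2-fold apart numbered 252, 25 without a background model and 509 in the authors' values. At a detection p under 0.01, 2 member genes were detected on no array (Sox3 and Sox7) in place of 1. The inducible lines could not be set against KH2_dox without that array, nor the last 2 comparisons without either KH2 array. Sox17, Sox7, Sox18 and Sox4 lie near the detection limit, so their differences are the least well read.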

Other observations

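Of 11 other Sox genes, 9 had a probe, 3 were detected on all 6 arrays (Sox2, Sox8 and Sox21) and 6 on none: Sox1, Sox5, Sox6, Sox9, Sox30 and Sry. Sox21, a SoxB2 factor that acts as a repressor in neural progenitors and is also present in early embryos, varied most of these. Its brightest probe had a raw signal of 1066 ± 40.0 (bead standard error) in Sox17_dox line 1 and 1372 ± 53.5 in Sox17_dox line 2, against 225 ± 7.62 in Sox17_untreated line 1 and 1097 ± 41.4 in Sox17_untreated line 2. KH2_dox read 229 ± 8.89 and KH2_untreated 313 ± 14.3. The normalised change with doxycycline was 2.67 in line 1 and 0.27 in line 2, with -0.61 in KH2, so untreated line 2 was already near the induced level. The arrays with a low Sox21 signal are those on which Sox18 was detected: untreated line 1 and both KH2 arrays. A second Sox21 probe was detected on 3 arrays, those of the induced lines and of untreated line 2, with changes of 1.01, 0.05 and -0.06. The remaining probe was detected on no array. Between Sox17_dox and Sox17_untreated the brightest probe differed by 1.47 ± 0.82 (limma, adjusted p = 0.955), against KH2_dox by 3.05 ± 1.01 (adjusted p = 0.433), and over both treatments the inducible lines lay 2.01 ± 0.71 above KH2 (adjusted p = 0.453). Without untreated line 1, the inducible array with the low Sox21 signal, these were 0.059, 3.06 and 2.72. Without untreated line 2 they were 2.89, 3.05 and 1.30. Such runs leave a single untreated array of the inducible lines, so their sizes are given and no call is drawn.

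Sox8, a SoxE factor, differed by 0.19 with doxycycline in line 1, by -0.24 in line 2 and by -0.23 in KH2, with bead errors of 0.22, 0.21 and 0.26. For Sox2, the brightest probe differed by -0.54 between KH2_dox and KH2_untreated while its other probe differed by 0.09, so the probes of that gene disagreed in direction in KH2.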
